A study of Bos taurus with 15 samples.

Results

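The sites described here were the deeply read CpG cytosines at which the mammary gland of every heifer was highly methylated. A position was taken when more than 10 reads covered it and at least 90% of those reads were methylated in each of the 6 mammary libraries, on any sequence of the assembly, so the sites were selected on their mammary level and depth. Of the 27136487 positions listed in any of the 15 libraries, 18486 had more than 10 reads in every heifer, and 1553 of these (8.40%) met the level as well. A further 535 of the deep positions were at 10% or less in every heifer and are called unmethylated, and the remaining 16398 were neither. The levels and the depth of the heifers chose the sites, so both are given below as a description without a test. The tests use liver of other animals, mammary positions outside the depth rule, and the level of a heifer at positions chosen on the level of the others.

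Holstein cattle were profiled by reduced representation bisulfite sequencing, or RRBS, with 1 library per animal. Mammary gland came from heifers on day 21 of their first lactation whose dams had been cooled (IUCL-H, n = 3) or heat stressed (IUHT-H, n = 3) in late gestation. Liver came from newborn bull calves of cooled (IUCL-B, n = 5) or heat stressed (IUHT-B, n = 4) dams. Dams of all groups had shade, and the cooled dams also had fans and soakers. The treatment was that of the dam, per the study's methods, and the labels give it with each offspring. Each group stands for whole tissue, in which a change in the mix of cells and a change within cells cannot be told apart. Mammary gland was taken from lactating females and liver from newborn males, so tissue, sex and age cannot be told apart. Heifer libraries held 13949097 to 20240625 CpG calls and calf libraries 10484911 to 38221835. The calf libraries concentrated their reads on fewer positions (307023 to 5958861 per library, against 7552567 to 9753540 in heifers), and IUCL-B calves 4 and 5 had the widest of them.

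In mammals, methyl groups are placed on the cytosine of CpG dinucleotides by DNA methyltransferases, and DNMT1 copies the mark to the new strand after replication. Most CpGs of a somatic cell are methylated, repeats and gene bodies among them, whereas CpG-dense promoters are usually free of the mark. RRBS cuts the genome at sites that contain a CpG and sequences short fragments. Its depth tends to gather near cut sites and at sequences present in many copies. Per the study's methods, adaptors were joined by random probing after bisulfite treatment, so reads need not begin at a cut. In the heifer libraries only 0.436% to 0.632% of listed positions had more than 10 reads. The cytosines of a CpG on its opposite strands lie 1 bp apart and were listed as separate positions. Genes, repeats and base composition at the sites were not analysed here.

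The name fully methylated did not hold for most of these sites. At only 98 of the 1553 sites (6.31%) was every read methylated in all 6 heifers, and at 798 no heifer reached 100%. The mean level over the sites was 95.82%, 95.995% and 95.98% in IUCL-H heifers 1, 2 and 3, and 95.81%, 95.84% and 95.96% in IUHT-H heifers 1, 2 and 3. The heifers were thus within 1 percentage point of each other, and the values of the maternal groups (95.9% ± 0.0983 and 95.9% ± 0.0766, SD, n = 3 each) overlapped. They are called highly methylated sites below. At single sites the median SD between heifers was 1.96 percentage points. The median distance from the lowest to the highest heifer of a site was 5.13 points. The rule required a high level of every heifer, which bounds these spreads and the differences between heifers and groups. Their small size is therefore not read as agreement between animals. The lowest mean over the 6 heifers of any site was 90.9%, and the median of these means was 95.8%.

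The limit of 90% cut through a continuous range of levels. Just inside it, 359 sites had their lowest heifer between 90% and 90.99%, with a median depth of 66 reads and a median over sites of the mean level of 94.05%. Just outside it, 272 deep positions had their lowest heifer between 89% and 89.94%, with a median depth of 77 reads and a median of 93.2%. At 1082 deep positions exactly 5 heifers reached 90%. The sixth heifer had a median of 87.5% there, was at 80% or more at 1002 of them and was below 50% at 1 of them, where it had 45.5%. IUHT-H heifers 1 and 3 were the exception at 244 and 227 of these positions, and each of the other heifers at 139 to 170.

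A level that took no part in the choice was obtained by holding out the level of each heifer in turn, while its depth of more than 10 reads was still required. Of the positions at 90% or more in the other 5 heifers, the held-out heifer was also at 90% or more at 86.4% to 91.8%, with a mean level of 94.4% to 95.2%. The held-out means were 95.1% ± 0.108 in IUCL-H and 94.7% ± 0.287 in IUHT-H (SD, n = 3 each). The difference of 0.362 percentage points, with IUHT-H lower, did not pass a two-sided exact permutation test over the heifers (p = 0.2, adjusted p = 0.25 over 5 comparisons of animals). With 3 animals against 3, this test cannot go below 0.1.

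The highly methylated sites were read more deeply than the other deep positions. The median depth was 77 reads per site and heifer, against 42 at the positions that were neither and 56 at the unmethylated ones. Summed over the 6 heifers a site had 77 to 39845 reads, with a median of 549, and 474 sites (30.5%) had more than 1000 reads, compared with 11.6% of the positions that were neither. The reads were concentrated on few sites, since the 100 deepest sites held 42.5% of the 1966891 reads and the 10 deepest held 13.2%. Depth and level were both part of the rule, so the difference in depth was not tested.

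Complete methylation was mostly seen where reads were few. Among the 386 sites with the fewest reads (77 to 266 in all), 43.8% of the values of single heifers were exactly 100% and the mean level was 96.8%. Among the 389 with the most reads (1228 to 39845), 4.63% of the values were 100% and the mean level was 94.9%. Above 1000 reads in all, 182 of 474 sites lay between 94% and 96% and a further 151 between 92% and 94%, whereas 36 were at 99% or more. At this depth a broad set of sites had some unmethylated reads and a small set almost none.

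**Figure D1:**
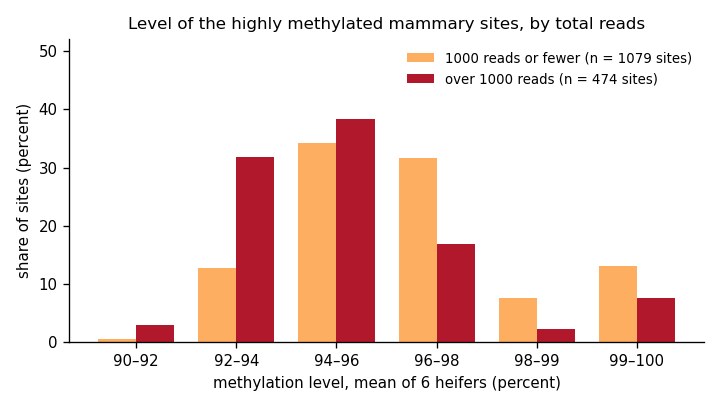
Share of the highly methylated sites (vertical axis, percent of sites) by their methylation level averaged over the 6 heifers (horizontal axis, percent, with a narrower bin width from 98 upward), for sites with up to 1000 reads and with more than 1000 reads summed over the heifers. Of the 474 deeper sites, 38.4% were at 94 to 96% and 7.59% at 99% or more, and of the 1079 shallower sites 13.2% were at 99% or more.

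The 5 deepest sites at least 1 kb apart show both kinds. The deepest lay on chromosome 4 at position 28992437, with 1961 to 19436 reads per heifer. Its level was 94.1%, 94.8% and 94.8% in IUCL-H heifers 1 to 3 and 94.4%, 93.3% and 94.002% in IUHT-H heifers 1 to 3. All 6 animals were within 2 points of each other and the groups overlapped.

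The site on chromosome X at position 134397113 had 1265 to 7450 reads per heifer and a level between 99.7% and 99.9% in every heifer. On chromosome 4 at position 98727778 the level ran from 92.4% to 94.8%, on chromosome 8 at position 110742977 from 94.6% to 95.1%, and on chromosome 12 at position 79832283 from 94.1% to 94.9%. Neither site of chromosome 4 nor that of chromosome X had more than 10 reads in any calf. The sites of chromosomes X, 8 and 12 each had another highly methylated site 4 bp away.

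The highly methylated sites took 2.01%, 1.34% and 2.64% of all CpG calls in IUCL-H heifers 1 to 3, and 1.79%, 1.79% and 1.71% in IUHT-H heifers 1 to 3. The mean share was 2.00% ± 0.649 in IUCL-H and 1.76% ± 0.0427 in IUHT-H (SD, n = 3 each). The IUCL-H heifers lay on both sides of the IUHT-H heifers. The difference of -0.238 points (IUHT-H minus IUCL-H) turned to 0.0653 points without IUCL-H heifer 3. This share is a depth, which the rule used, and is given as a description.

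On the assembled chromosomes 1 to 29 and X there were 1306 sites, and 247 sites (15.9%, Wilson 95% confidence interval 14.2 to 17.8%) lay on 166 unplaced sequences. Such intervals hold for counting error alone, as amplified reads can be copies of 1 molecule and neighbouring sites share fragments. The unplaced share was 23.7% (23.1 to 24.4%) among the deep positions that were neither and 5.79% (4.11 to 8.11%) among the unmethylated ones. Unplaced sequences made up 0.879% of all positions listed in any library, so each class of deep position was richer in them. Levels of the highly methylated sites were 95.81% to 96.04% on chromosomes and 95.53% to 96.02% on unplaced sequences over the 6 heifers. The rule holds both at 90% or more. Unplaced sites were shallower, with a median of 39 to 69 reads per heifer against 63 to 138.5 on chromosomes.

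Chromosomes differed in how many of their deep positions were highly methylated. On chromosome 9 it was 109 of 502 (21.7%, interval 18.3 to 25.5%), on chromosome 12 it was 13 of 57 (22.8%, 13.8 to 35.2%), on chromosome 21 it was 50 of 276 (18.1%, 14.02 to 23.1%), on chromosome 11 it was 90 of 587 (15.3%, 12.6 to 18.5%) and on X it was 90 of 617 (14.6%, 12.02 to 17.6%). At the other end were chromosome 23, with 3 of 132 (2.27%, 0.776 to 6.47%), and chromosome 29, with 24 of 1021 (2.35%, 1.58 to 3.47%). The order is a description of positions, which are grouped into few fragments. On chromosome 9, 65 of the 109 sites belonged to 1 cluster. The windows of 1 Mb with the most highly methylated sites were 65 to 66 Mb of chromosome 9 (65 sites among 153 deep positions), 28 to 29 Mb of chromosome 27 (65 among 1238) and 74 to 75 Mb of chromosome 8 (58 among 953). The latter pair held many deep positions of which few were highly methylated, 5.25% and 6.09% respectively. On chromosome 29, the window from 30 to 31 Mb held 715 deep positions, 10 of which were highly methylated.

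Of the sites on chromosomes, 127 (9.72%) lay in the last 2 Mb, compared with 3.25% of the deep positions that were neither, 5.56% of the unmethylated ones and 7.76% of all positions listed in any library. In the first 2 Mb there were 112 (8.58%), compared with 9.33%, 6.94% and 2.49% for the same sets. Deep positions in general were thus more frequent near the start of a chromosome than listed positions were, and near the end the highly methylated sites were the class with the largest share. Since the sites are clustered, neither comparison was tested.

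When sites with gaps under 1 kb were joined, the 1553 sites formed 939 clusters. Of these, 659 held a single site, 195 held 2, 65 held 3 or 4, and 20 held 5 or more. These 20 clusters held 290 sites (18.7%). The mean was 1.65 sites per cluster, which is not set against the other classes because such a number depends on how many positions a class holds. Clusters also held deep positions outside the set. Within the spans of the clusters of 2 or more, which held 894 sites, another 866 deep positions did not meet the level in every heifer. That count includes narrow misses, such as a position of the largest cluster with a mean of 95.01% and a lowest heifer of 87.7%.

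The largest cluster ran from 65872599 to 65873973 on chromosome 9 (assembly UMD3.1), 1375 bp with 65 highly methylated sites and 79 other deep positions, 1 of which was unmethylated in every heifer. The mean level of its 65 sites was 95.99%, 95.6% and 95.5% in IUCL-H heifers 1 to 3 and 95.4%, 96.5% and 95.4% in IUHT-H heifers 1 to 3. The other deep positions in the same span averaged 80.6% over the heifers, down to 0.473% at the lowest. High and intermediate levels alternated along the cluster rather than forming a single block.

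**Figure D2:**
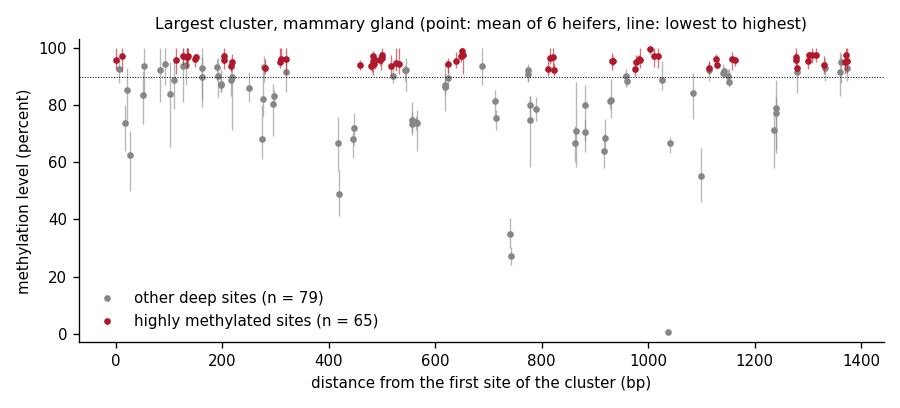
Methylation level in mammary gland (vertical axis, percent) of the deep positions of the largest cluster against their distance from its first site (horizontal axis, bp), with points for the mean of the 6 heifers and lines from the lowest to the highest heifer. The dotted line marks the 90% limit, and 65 highly methylated sites stand among 79 other deep positions whose means reach down to 0.473%.

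In liver the same cluster was methylated in every calf. All 65 of its sites were listed in IUCL-B calves 4 and 5, and 18 to 49 in each other calf. Over the listed sites the mean level was 94.3%, 94.1%, 95.8%, 96.8% and 95.5% in IUCL-B calves 1 to 5 and 94.9%, 95.6%, 95.9% and 98.4% in IUHT-B calves 2 to 5. The calves of the groups overlapped, and each had a lower level at the other deep positions of the cluster, between 74.4% and 84.3%.

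The next cluster on chromosome 11, from 107284844 to 107286594, held 33 sites with 95.2% to 96.1% over the heifers. In calves it had 83.4% to 99.8%, on 6 to 33 listed sites. The cluster on chromosome 28, from 1893803 to 1894869, held 21 sites with 94.6% to 96.5% in heifers and 86.4% to 100% in calves, where 2 of the 9 calves had only 1 or 2 of its sites.

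On chromosome 21, from 70102867 to 70103089, 19 sites were packed into 223 bp and had 94.7% to 96.8% in heifers and 87.5% to 100% in calves. On X, from 89907874 to 89908643, 17 sites had 94.998% to 96.7% in heifers and 96.1% to 100% in calves. Bulls carry a single X chromosome and heifers a pair, of which 1 is inactivated in each cell. Other deep positions within these 4 clusters averaged 77.6% to 87.4% in mammary gland.

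On unplaced sequences the largest cluster, on GJ058978.1 from 51 to 680, held 16 sites with 95.2% to 97.4% in heifers. Its other 16 deep positions had a mean of 90.01%, the highest among the 8 clusters named here. The clusters on GJ058815.1 (from 282 to 862) and GJ060047.1 (from 305 to 701) held 4 sites each, with 95.1% to 97.4% and 95.7% to 98.9% in heifers. In calves the cluster on GJ058978.1 had 83.3% to 100%, on 2 to 12 listed sites in 8 calves. On GJ058815.1 the means were 94.6% to 100% in the IUCL-B calves, and 50%, 100%, 100% and 50% in IUHT-B calves 2 to 5, on only 1 or 2 listed sites each. On GJ060047.1 only 2 of the 4 sites were listed in any calf, with 100% in 5 calves and 0% on a single read in IUHT-B calf 3.

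Spacing between sites of the same class is given as a description. Among pairs of neighbouring highly methylated sites, distances of 1 bp (85 pairs) and 4 bp (81 pairs) were the most frequent, with 33 pairs each at 2 and 3 bp. The rate at 1 bp was much the same for the positions that were neither (5.47 and 5.31 pairs per 100). A neighbour of the same class exactly 4 bp away was present for 12.3% of the sites, compared with 6.36% of the deep positions that were neither. Of the 100 deepest sites, 37 had such a neighbour. Among the positions that were neither, 23 bp was the most frequent distance between neighbours (1057 pairs, 6.45 per 100 positions), and only 6 pairs of highly methylated sites had it (0.386 per 100).

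**Figure D3:**
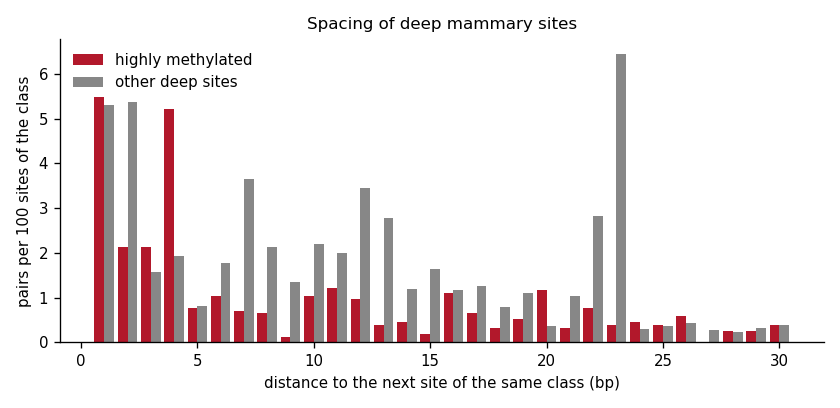
Number of neighbouring pairs per 100 sites of a class (vertical axis) by the distance to the next site of the same class (horizontal axis, 1 to 30 bp), for the highly methylated sites and the deep positions that were neither highly methylated nor unmethylated. The highly methylated sites peak at 1 and 4 bp (5.47 and 5.22 pairs per 100 sites), and the others at 23 bp (6.45), with 5.31 at 1 bp and 5.38 at 2 bp.

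Sites 4 bp apart can lie on the same reads and then share their depth. Of the 96 pairs of sites 4 bp apart, counted whether or not another site lay between them, 53 (55.2%) had total read numbers within 5% of each other, and their levels differed by a median of 0.970 points. At 1 bp, where the positions lie on opposite strands when both belong to 1 CpG, none of 85 pairs had read numbers within 5%, the ratio of their reads ran from 0.0977 to 12.2, and their levels differed by a median of 1.35 points. The rule bounds the difference in level of such pairs, and it did not bound that in depth.

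For 1086 sites (69.9%) a position 1 bp away was listed in a heifer library, compared with 72.2% of the positions that were neither and 62.99% of the unmethylated ones. Where such a neighbour was not itself a highly methylated site, its mean level was 87.6% to 90.2% in the 6 heifers, at a median of 5 to 8 reads. With more than 10 reads, the neighbour had a mean of 89.5% to 91.4%, and 60.9% to 69.7% of these neighbours were at 90% or more. Almost every site (95.8%) had another deep position within 50 bp, the length of a read, but 42.4% had no other highly methylated site within 1 kb. Listed positions within 500 bp numbered a median of 41 around the highly methylated sites, 38 around the positions that were neither and 28 around the unmethylated ones.

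Positions that had not entered the depth rule were compared beside the sites and beside other deep positions. Between 51 and 1000 bp from a highly methylated site, beyond the reach of a single read, the mean level was 75.5%, 73.98% and 74.9% in IUCL-H heifers 1 to 3 and 73.1%, 73.4% and 74.9% in IUHT-H heifers 1 to 3. At the same distances from other deep positions and away from highly methylated sites, it was 68.4%, 66.9%, 68.2%, 65.9%, 66.3% and 66.1% in the same order. Every heifer was higher beside the highly methylated sites, and the ranges of the 2 sets did not overlap. The means were 74.3% ± 0.951 and 66.96% ± 1.07 (SD, n = 6), a difference of 7.32 points (SD of the 6 differences 0.715). This was tested by a two-sided exact sign-flip permutation test over the heifers, which gave p = 0.0312, the smallest it can give. Its adjusted p was 0.0781. Among the tests adjusted together, those of the held-out level and of the share of calls cannot go below 0.1. The adjusted p therefore could not have fallen under 0.05 whatever the levels were, so it decides nothing here.

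By distance the values were as follows. At 2 to 50 bp the level was 76.4% ± 0.686 beside highly methylated sites, 66.9% ± 0.899 beside the positions that were neither and 61.6% ± 1.70 beside unmethylated ones. Beyond 1000 bp and up to 5000 bp the values were 71.9% ± 0.980, 72.3% ± 0.933 and 72.4% ± 1.31 (SD, n = 6 each), within the spread between heifers. In the comparison of highly methylated sites with all other deep positions, the sign turned at this distance, to a difference of -1.29 points (exact p = 0.0625). When 5 reads in every heifer were enough for a deep position, the difference at 51 to 1000 bp was 4.75 points. All positions listed in a heifer averaged 73.5% ± 1.65 (SD, n = 6), so the level beside the sites was near that of the library (higher in 4 of 6 heifers), and beside the other deep positions it was lower. The level at these shallow positions stayed far below that of the sites themselves at every distance.

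**Figure D4:**
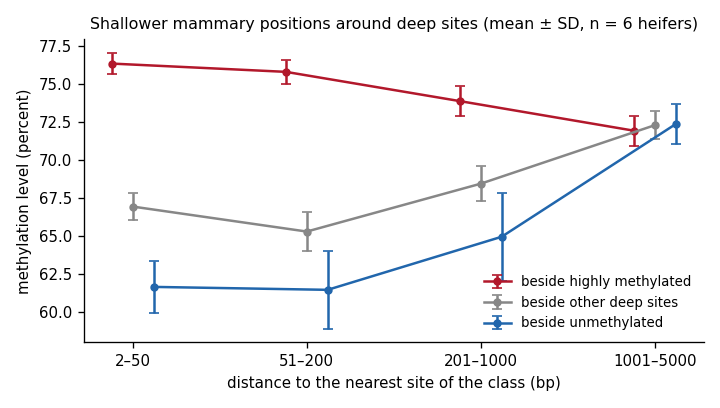
Mean methylation level in mammary gland (vertical axis, percent, not starting at 0) of positions outside the depth rule by their distance to the nearest site of a class (horizontal axis, bp), as mean ± SD over 6 heifers. Beside highly methylated sites the level went from 76.4% at 2 to 50 bp to 71.9% beyond 1000 and up to 5000 bp, and beside unmethylated ones from 61.6% to 72.4%.

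The same positions were asked for in liver, which no part of the rule had used. Of the 1553 sites, 1195 (76.9%) were listed with at least 1 read in a calf, 213 in all 9 calves and 358 in none. A single calf listed between 478 and 995 of them, most in IUCL-B calves 4 and 5, whose libraries were the widest. Of the positions that did not meet the level, 83.1% were listed in a calf. Many of the 98 sites at 100% in all 6 heifers were listed in no calf, although some were listed. In some cases another site of the same cluster was listed in all 9 calves. The liver levels below cover listed sites only, and so leave out many of the sites fully methylated in mammary gland. Whether absence from liver goes with the mammary level was not tested.

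Wherever the sites could be read in liver, most were highly methylated there too. The mean level over the listed sites was 92.8%, 93.8%, 92.2%, 94.4% and 93.97% in IUCL-B calves 1 to 5, and 91.5%, 92.02%, 93.6% and 92.4% in IUHT-B calves 2 to 5. The other deep mammary positions had 69.3%, 67.5%, 69.6%, 71.2% and 71.4% in IUCL-B calves 1 to 5, and 68.2%, 68.5%, 68.5% and 69.4% in IUHT-B calves 2 to 5. The sets did not overlap over the calves. The means were 92.96% ± 1.00 and 69.3% ± 1.32 (SD, n = 9), a difference of 23.7 points (SD of the differences 1.26) that was larger than the spread between calves and had the same sign in 9 of 9 calves (two-sided exact sign-flip permutation test, p = 0.00391, the smallest it can give, adjusted p = 0.0195). All positions listed in a calf averaged 73.8% to 78.1%, so the highly methylated sites lay above the level of the library and the other deep positions below it. Positions unmethylated in every heifer had a liver level of 9.99% ± 6.61 (SD, n = 9).

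**Figure D5:**
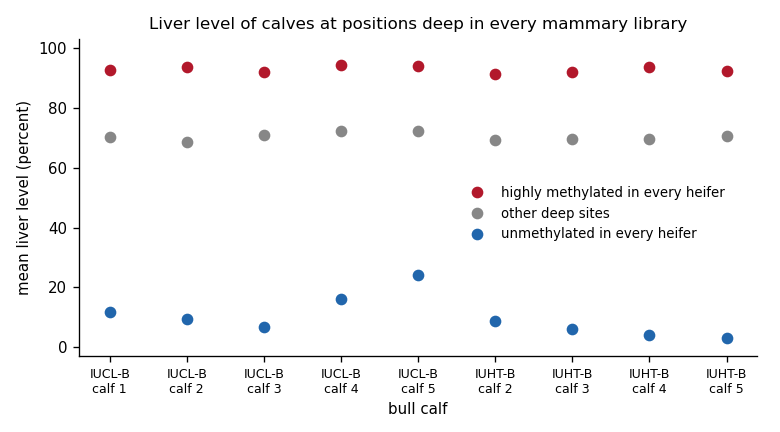
Mean methylation level in liver (vertical axis, percent, every listed position weighted alike) of each of the 9 bull calves (horizontal axis) at positions deep in every heifer, with 1 point per calf and class. The highly methylated sites lie between 91.5% and 94.4%, the positions that were neither between 68.7% and 72.4%, and the unmethylated ones between 2.94% and 24.03%.

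The result did not rest on deep liver positions. At sites with exactly 1 read in a calf, 87.8% to 94.9% of those reads were methylated, compared with 65.9% to 71.1% at the other deep mammary positions. At sites with more than 10 reads in the calf, 81.5% to 87.9% were at 90% or more, compared with 38.9% to 53.7% of the others. By kind of sequence, the mean level was 91.1% to 94.1% on autosomes, 85.2% to 98.4% on X (21 to 64 sites per calf) and 93.07% to 95.91% on unplaced sequences.

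Single sites were not at 90% in every calf, as the rule had required of the heifers. With more than 10 reads in at least 1 calf there were 865 sites, and 551 of them (63.7%) were at 90% or more in every calf so covered, compared with 31.03% of the 9806 other deep mammary positions so covered. Of the 3043 pairs of a site and a calf with more than 10 reads, 2594 (85.2%) were at 90% or more and 50 (1.64%) at 10% or less. In IUCL-B calf 4 none of 585 sites was at 10% or less, which allows a share of up to 0.513% by counting error alone. In IUCL-B calf 5, the other wide library, it was 0.593%. The remaining calves had 1.47% to 6.52%, the highest on 138 sites in IUHT-B calf 5, the narrowest library. At the other deep mammary positions the shares were 8.50% and 6.66% in IUCL-B calves 4 and 5 and 17.04% to 21.1% in the remaining calves. Animal and width of the library cannot be told apart here.

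At 48 sites at least 1 calf had 10% or less, and at 42 of these another calf had 90% or more. That is 6.40% of the 656 sites with more than 10 reads in several calves, compared with 18.8% of the 6955 other positions so covered. Only 2 of the 48 sites were at 10% or less in more than 1 calf.

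At least 3 calves of both liver groups had more than 10 reads at 145 sites, of which 113 had a mean over calves of 90% or more and none was below 50%. Over all 865 sites with more than 10 reads in a calf, 11 had a mean below 50% in the calves so covered, and 6 were at 10% or less in every such calf. Among the 145, those with the lowest means show how a low mean arose. On chromosome 8 at position 76344482, where the heifers had 91.5% to 95.2%, the liver level was 14.6%, 51.9%, 99.7%, 43.2% and 93.5% in IUCL-B calves 1 to 5 and 69.6%, 100%, 79.9% and 99.8% in IUHT-B calves 2 to 5, on 41 to 532 reads. Calves of both groups were spread over a wide range and the groups overlapped.

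On the unplaced sequence GJ058223.1 at position 245, with 91.5% to 96.1% in heifers, the liver level was 100% in all 5 IUCL-B calves and 8.33%, 97.2%, 100% and 4.08% in IUHT-B calves 2 to 5, on 21 to 464 reads. A neighbouring site at position 262, 17 bp away, was at 98% to 100% in all 4 IUHT-B calves. The calves that were low at position 245 were thus high 17 bp away.

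On chromosome 7 at position 51284882, with 93.9% to 95.2% in heifers, IUCL-B calf 3 had 42.2% and IUHT-B calves 2 and 3 had 21.2% and 53.1%, whereas the other 6 calves had 91.6% to 98.6%. The site 4 bp further on had 43.4% in IUHT-B calf 2 and 96.9% to 100% in the other 8 calves. On chromosome 17 at position 70997845 the low calf was IUCL-B calf 2, with 16.4%, and the others had 70.9% to 98.4%. On chromosome 27 at position 28795118, IUCL-B calf 3 had 4.35% on 46 reads, IUCL-B calf 5 had 58.5% and 5 others with more than 10 reads had 85.7% to 99.9%.

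The highest liver means were 100%, with every read methylated in every calf that listed the site. These sites lay on chromosome 4 at position 120643630 (7 calves with more than 10 reads, up to 1115), on X at position 89908643 (8 calves, up to 507 reads) and on chromosome 2 at position 137023026 (7 calves, up to 221 reads). In the heifers they had 94.4% to 100%, 91.03% to 98.9% and 92.08% to 96.91%. The X site closes the X cluster described above.

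Over the sites, liver levels were 93.4% ± 0.893 in IUCL-B (n = 5) and 92.4% ± 0.895 in IUHT-B (SD, n = 4). The difference of -1.05 points (IUHT-B minus IUCL-B) was of the size of the spread between calves, the groups overlapped, and a two-sided exact permutation test over the calves gave p = 0.111 (adjusted p = 0.185). The other deep mammary positions had a liver level of 69.8% ± 1.61 in IUCL-B and 68.6% ± 0.508 in IUHT-B (SD). IUHT-B was thus lower there as well, which was not tested. The size of the difference at the highly methylated sites and its side of 0.05 depended on the setting. With sites at 80% or more it was -0.342 points (exact permutation p = 0.452), and with more than 10 reads in the calf -2.11 points (exact permutation p = 0.0635). Choosing the sites without IUHT-H heifer 2 gave -1.16 points (exact permutation p = 0.0476), weighting reads alike gave -2.43 points (exact permutation p = 0.0476), and choosing sites at 95% or more turned the difference to 0.703 points (exact permutation p = 0.635). Listed sites differed in number between the groups at the same time, with 48.4% ± 13.2 of the sites listed per IUCL-B calf and 34.8% ± 2.81 per IUHT-B calf (SD), and without the wide libraries of IUCL-B calves 4 and 5 the difference was -0.567 points (exact permutation p = 0.4).

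Single sites were compared between the maternal groups with the model and limits of the study, in which a differentially methylated cytosine (DMC) has a difference of at least 15 points between pooled reads and a q-value of 0.2 or less. In liver, 900 positions had more than 10 reads in all 9 calves and 298 of them (33.1%) were DMCs by logistic regression. Of these 900 positions, 48 were highly methylated in every heifer, and 9 of the 48 (18.8%) were DMCs. In IUHT-B, 2 of them were higher and 7 lower, beside 14.2% higher and 18.9% lower of all positions tested. The median absolute difference was 5.27 points at the 48 sites and 8.63 points at all positions.

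The reads varied more between calves than counting error allows. The dispersion averages about 1 when calves of a group differ by counting error alone, with a median somewhat below 1. Its median was 19.98 at the 48 sites and 32.1 at all 900 positions. With a test that includes this dispersion (F test), 57 positions (6.33%) were DMCs, and 1 of them was a highly methylated site, GJ058223.1 position 245 above, with a pooled difference of -36.8 points and q = 0.195. By edgeR none of the 48 was called (2 of 900 positions, 0.222%) and 7 of them had an unadjusted p under 0.05, beside 82 of the 900 (9.11%). By limma none was called (3 of 900, 0.333%) and 10 had such a p, beside 114 of the 900 (12.7%). Counts this small at the 48 sites are given with no comparison.

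At 3 of the 7 lower sites, named here after their values were seen, a single IUHT-B calf was low and the other 8 calves were all high. On chromosome 8 at position 74682511, IUHT-B calf 5 had 1.64% and the other 8 calves 96.7% to 99.4%. On chromosome 27 at position 28510589, IUHT-B calf 5 had 41.3% and the other 8 calves 96.3% to 100%. The library of IUHT-B calf 5 was the narrowest of the calves (307023 positions). On chromosome 5 at position 53762777, IUHT-B calf 4 had 61.7% and the other 8 calves 93.8% to 100%. A lower level in more than 1 calf was seen in the largest cluster, on chromosome 9 at position 65873970, with 99.3%, 72.2%, 99.4%, 100% and 98.4% in IUCL-B calves 1 to 5 and 96%, 79.5%, 60.9% and 64.7% in IUHT-B calves 2 to 5, although the groups overlapped.

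The remaining lower sites were chromosome 7 position 51284882 and GJ058223.1 position 245, described above, and chromosome 27 position 28742922. The last had 98.4%, 96.04%, 54.2%, 81.5% and 97.6% in IUCL-B calves 1 to 5 and 95.3%, 30.04%, 98.8% and 88.9% in IUHT-B calves 2 to 5. A single IUHT-B calf was low there as well, with a pooled difference of -44.3 points but a difference of group means of -7.27 points. The higher sites were chromosome 8 position 76344482, described above, and chromosome 8 position 74504525, with 77.01%, 57.8%, 87.2%, 98.6% and 94.5% in IUCL-B calves 1 to 5 and 91.7%, 98.4%, 99.04% and 100% in IUHT-B calves 2 to 5. No DMC among the highly methylated sites had groups that did not overlap. Of all 900 positions, 3.78% had such groups, and 1 of them was a highly methylated site, on chromosome 8 at position 74638847. It had 99.3%, 94.7%, 97.8%, 85.3% and 81.02% in IUCL-B calves 1 to 5 and 100%, 99.8%, 99.7% and 100% in IUHT-B calves 2 to 5, and its pooled difference of 10.8 points was below the 15 points of a DMC.

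In mammary gland, 285 of the 18486 deep positions (1.54%) were DMCs between IUHT-H and IUCL-H by the same model, and none of the highly methylated sites was, which the rule itself fixes since all their levels are at 90% or more. The largest pooled difference at a site was 8.70 points. The median dispersion was 0.747 at the highly methylated sites and 1.13 at all deep positions. At a typical deep position the heifers of a group thus varied somewhat more than counting error alone would have them. At the highly methylated sites the rule itself limits this spread. By the same logistic regression, 2331 of the 18486 deep positions (12.6%) had an unadjusted p under 0.05.

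Positions with more than 10 reads in all 15 animals numbered 481, and 48 of them were highly methylated in every heifer. Of these, 8 were at 90% or more in all 9 calves as well and so were highly methylated in every animal of the series. Among the 433 others, 20 were at 90% or more in all 9 calves. Of the 48, the window from 28 to 29 Mb of chromosome 27 held 9, that from 74 to 75 Mb of chromosome 8 held 10 and the largest cluster on chromosome 9 held 7.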

How the data were processed

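RRBS libraries of 6 mammary glands and 9 livers were used, grouped by the labels. Per the study's methods, MspI and TaqαI fragments were read from single ends (50 bp), trimmed, and mapped with Bismark in its post-bisulfite mode, with the first 6 bases ignored. The labels name Trim Galore 0.4.4, Bismark 0.17.0, FastQC and UMD3.1, and the methods other versions and UMD3.1.1. The authors deposited, per cytosine, the count of methylated and of unmethylated calls. The authors also deposited the percent methylated, which matched the counts within 0.001 points in every line. Positions are 1-based. Heifers were numbered within groups in record order.

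Sites, lists and comparisons were chosen with earlier results of these data known. Levels of an animal are means over positions, weighted alike, unless stated. Animals were compared by exact permutation tests, adjusted by Benjamini-Hochberg over 5 tests. The fifth, of the share of calls, rests on depth, which the rule used, and is not given as a test. DMCs were fitted by logistic regression with a likelihood-ratio test on all positions deep (over 10 reads) throughout a tissue, p-values adjusted over all of them. Overdispersion (F test), edgeR 4.0.16 and limma 3.58.1 with 0.5 added to both counts (R 4.3.3) were alternatives. The fits were also run on simulated counts, which held no variation between animals beyond counting error and had base levels below those of the highly methylated sites. That run does not show how the fits do on these data. Named were the 5 placed and 3 unplaced clusters with most sites, the 5 deepest sites, the 5 lowest and 3 highest in liver among those over 10 reads in 3 or more calves per group, DMCs of non-overlapping groups (none), and sites at the threshold. Python 3.11.15, numpy 2.4.6 and scipy 1.17.1 were used.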

Additional observations from a re-analysis of the deposited data

Results flagged for a closer look

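Within the liver groups, 32 sets of 4 or 5 calves were examined for a calf far from the others of its group, and 5 were found. The limit used has a rate of about 1 in 20 for normally distributed values in independent sets. These percentages lie near 100% and the sets share calves, so 5 of 32 is not read as an excess. In IUCL-B calf 2 the highly methylated sites exceeded the other deep mammary positions by 26.4 points, against 22.6 to 23.5 in the other IUCL-B calves. At the site on chromosome 12, position 79832283, IUHT-B calf 2 had 2.70% on 37 reads against 97.4% to 100% in the other IUHT-B calves. At chromosome 17 position 70997845, IUCL-B calf 2 had 16.4% against 79.96% to 95.7%. At chromosome 7 position 51284882, IUCL-B calf 3 had 42.2% against 91.6% to 97.3%. Over the cluster on chromosome 11 that starts at 107284844, IUCL-B calf 3 had a mean of 86.999%, on 9 listed sites, against 95.5% to 98.4%. The sites on chromosomes 17 and 7 were named for their low liver mean, so a low calf there follows in part from the choice.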

How the results depend on the processing

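The excess of liver level over the other deep positions kept its direction and its call under all 26 alternatives run (21.6 to 25.9 points), and the held-out mammary difference kept its direction under its 10, in a design that cannot reach 0.05, though it shrank to -0.0416 points at 95% or more. The number of sites was 3120 with at least 5 reads per heifer, 4775 at 80% or more and 318 at 95% or more. In the same order the unplaced share was 12.5%, 19.5% and 11.01% and the clusters numbered 2068, 1988 and 258. The liver difference IUHT-B minus IUCL-B passed 0.05 by exact permutation with at least 5 reads (-0.931 points), with reads weighted alike (-2.43) and, chosen after seeing the data, over positions listed in all 9 calves (-1.39), and it turned at 95% or more (0.703). The mammary difference beside the sites turned beyond 1000 bp and up to 5000 bp (-1.29). Highly methylated liver DMCs numbered 1 by F test, 0 by edgeR and 0 by limma, of 48, and all liver DMCs 57, 2 and 3, and 157 at a difference of 25 points, of 900. With at least 5 reads they were 16 of 84 (19.05%) and 636 of 1728 (36.8%), and above 20 reads 8 of 31 (25.8%) and 139 of 501 (27.7%), beside 9 of 48 (18.8%) and 298 of 900 (33.1%). Leaving out 1 animal at a time gave 1720 to 2020 sites, 15.1% to 17.95% unplaced, 1031 to 1182 clusters, 23.2 to 24.003 points of liver excess, -1.46 to -0.698 for the liver groups (0.0476 without IUHT-H heifer 2, the lowest p), 6.69 to 7.30 beside the sites (p = 0.0625, the smallest exact value of 5 heifers), -0.586 to 0.0653 for the share of calls (positive without IUCL-H heifer 3), -0.457 to -0.193 for held-out levels, 9 to 12 highly methylated DMCs and 301 to 489 DMCs in all (489 of 1409, 34.7%, without IUHT-B calf 5, with 12 of 72 highly methylated, 16.7%). Calves 2 to 5 share numbers between the groups. Deviations of same-numbered calves at 213 sites correlated by -0.0307, 0.0908, 0.0281 and -0.0368, and those of calves with different numbers by -0.0531 to 0.120. The labels do not say whether a number marks a pair, and these values cannot settle it. With the replicate block the liver difference was -1.22 points (exact sign-flip p = 0.125, the smallest value that the same-numbered calves can give). Then 9 highly methylated sites and 294 positions were DMCs, compared with 9 and 301 in the same 8 calves without the block. Depth limits the liver comparison of single sites to the 48 covered in every calf.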
